A study of Mus musculus with 2 samples.

Results

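The 10 genes described here, which mark conventional dendritic cells, were measured in CD11b+ cells of subcutaneous mouse pancreatic tumours after induced deletion of Nrp2. They are Flt3, Zbtb46, Dpp4 and Cd24a, shared by conventional dendritic cells, Xcr1, Clec9a, Batf3 and Wdfy4, of the type 1 subset, and Ccr7 and Fscn1, of the migratory state. The members were chosen by symbol, and all 10 were found among the 49585 genes of the count table. Both groups were mice on a BL6 background that had the genotype NRP2f/fCSF1R-iCRE, that is floxed Nrp2 alleles and an inducible Cre recombinase driven by the Csf1r promoter of monocytes and macrophages. Tamoxifen was injected daily in the test group once tumours could be felt, to delete Nrp2, and the labels name no such treatment for the control group, so the drug and the deletion cannot be told apart. Tumours were taken at 15 days, and CD11b+ cells were pulled from digested tissue with magnetic beads. RNA of 3 animals was pooled into 1 library per group, and the labels give no age. Nrp2 itself had 1017 reads in the knockout library and 9686 in the control library, or 15.2 and 148 CPM, which are reads as a share of each library's scaled total, the usual CPM unit, and was 9.71-fold lower (95% interval 6.95 to 13.9).

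Conventional dendritic cells take up antigen in tissue, carry it to lymph nodes and present it to T cells. Their development depends on the cytokine receptor Flt3. The type 1 subset, which needs the transcription factor Batf3, presents antigen of dead cells on MHC class I and is known for priming CD8 T cells against tumours. Cells of this subset carry little or no CD11b, whereas type 2 cells carry it, so a CD11b selection favours type 2 cells. On maturation, either subset turns on Ccr7 and moves along gradients of its ligands.

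With 1 library per group, none of the differences could be checked in replicates, and p-values were not computed from the counts. The knockout library held 68554172 counted reads and the control library 64153676. To allow for reads copied from the same molecule, each captured fragment was taken as worth 24 reads in the knockout library and 47 in the control library, the medians over genes that had reads, above 4, in that library alone. Intervals in parentheses are 95% intervals of the ratio by the Clopper-Pearson method, computed on fragments, which need not be whole numbers. They cover counting error only, not differences between animals. The floor set for a gene without reads was 3 fragments, equal to 72 reads (1.07 CPM) in the knockout library and 141 reads (2.15 CPM) in the control library.

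Promoter windows of RefSeq (build GRCm38.p6), from 250 bases before to 50 after a start site, were on hand for 8 of the 10 genes, all but Ccr7 and Cd24a. The 3 printed here belong to the dendritic cell transcription factor gene and to the type 1 genes with the lowest levels in the knockout library, each read 5′ to 3′ on the gene's strand. Capitals mark TGANTCA, the AP-1 site, a type of site that Batf3 binds with a Jun partner, searched on both strands.
Zbtb46 (chr2:181424339-181424638, minus strand): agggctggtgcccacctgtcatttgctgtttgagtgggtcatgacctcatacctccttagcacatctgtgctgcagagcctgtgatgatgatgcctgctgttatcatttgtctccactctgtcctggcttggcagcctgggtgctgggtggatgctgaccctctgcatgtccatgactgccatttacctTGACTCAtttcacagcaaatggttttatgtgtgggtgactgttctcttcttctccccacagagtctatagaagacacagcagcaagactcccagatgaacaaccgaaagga
Clec9a (chr6:129408612-129408911, plus strand): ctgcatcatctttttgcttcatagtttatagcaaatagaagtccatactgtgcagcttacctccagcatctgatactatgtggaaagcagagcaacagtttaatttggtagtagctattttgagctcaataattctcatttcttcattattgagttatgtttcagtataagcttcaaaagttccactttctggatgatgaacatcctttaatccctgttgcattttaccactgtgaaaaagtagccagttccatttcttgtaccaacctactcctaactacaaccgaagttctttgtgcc
Xcr1 (chr9:123861980-123862279, minus strand): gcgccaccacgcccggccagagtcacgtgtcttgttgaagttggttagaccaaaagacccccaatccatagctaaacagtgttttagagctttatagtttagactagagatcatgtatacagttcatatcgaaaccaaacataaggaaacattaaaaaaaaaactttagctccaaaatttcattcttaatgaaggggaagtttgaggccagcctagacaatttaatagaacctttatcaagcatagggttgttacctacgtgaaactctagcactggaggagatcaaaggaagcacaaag
The Zbtb46 window held 1 match, 61 bases before the start site, and the other 7 windows held none, while 7.81% of all 32851 windows in the table held at least 1. The Zbtb46 start used by RefSeq lies inside the span that GENCODE gives the gene, and gene-level counts do not show which start was used. A composite site of ETS and IRF factors (GGAA, any 2 bases, GAAA) was in 0 of the 8 windows and in 2.72% of all windows. The core of the interferon-stimulated response element (GAAA, any 2 bases, GAAA) was in the Dpp4 window alone of the 8 and in 3.44% of all windows. The Clec9a and Xcr1 windows were 37% and 40% G and C, against 75.7% in the Batf3 window.

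Of the genes shared by conventional dendritic cells, Zbtb46 and Dpp4 were lower in the knockout library, Flt3 was not told apart on fragments, and Cd24a was higher. Zbtb46 (ENSMUSG00000027583, GRCm38 chromosome 2, 181387762 to 181459426) encodes a zinc finger transcription factor found in conventional dendritic cells, though not in them alone, and absent from most macrophages. It had 369 reads in the knockout library and 920 in the control library, or 5.51 and 14.01 CPM. This was 2.54-fold lower, with an interval of 1.24-fold to 5.32-fold. Dpp4 (ENSMUSG00000035000, chromosome 2, 62330073 to 62412231) encodes CD26, a surface peptidase that in mice sets conventional dendritic cells apart from monocyte-derived cells and is also carried by T cells. It had 743 reads in the knockout library and 2036 in the control library, or 11.1 and 31.0 CPM, and was 2.79-fold lower (1.72 to 4.59). The antisense gene Gm13561, which shares 232 exonic bases with Dpp4, had 0 reads in both libraries. Both genes thus lay lower by more than their counting error. In these bulk libraries fewer cells of a type and less RNA per cell cannot be told apart.

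Flt3 (ENSMUSG00000042817, chromosome 5, 147330741 to 147400489), the receptor on which these cells depend, had 758 reads in the knockout library and 1043 in the control library. Its levels were 11.3 and 15.9 CPM, 1.40-fold lower, and the interval of the ratio, 0.401 to 1.29, includes 1. On fragments a difference in Flt3 was therefore not detectable. The interval on undivided reads, which takes no account of copied reads, was 0.648 to 0.783. Cd24a (ENSMUSG00000047139, chromosome 10, 43578284 to 43584265) encodes a small glycoprotein that is high on type 1 cells but also on neutrophils, B cells and epithelial cells. It was the only member that was higher, with 24441 reads in the knockout library and 16169 in the control library, or 365 and 246 CPM, a ratio of 1.48 (1.31 to 1.68). The processed pseudogene Gm6212 matches Cd24a over 218 bases at 96.8% identity, and whether its reads were counted with Cd24a was not tested.

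**Figure D1:**
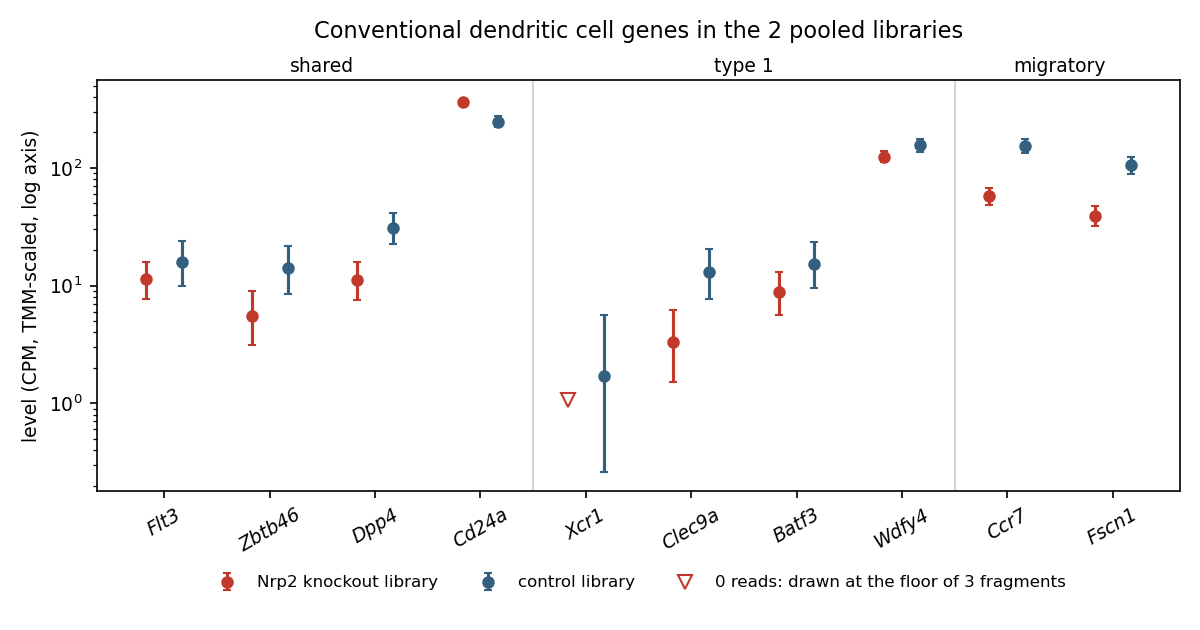
Level of each of the 10 genes in CPM (log axis) in the Nrp2 knockout library (red, left of each pair) and the control library (blue, right), 1 library of 3 pooled animals each; bars are 95% Poisson intervals on fragments and cover counting error only. The intervals are apart for Dpp4, Cd24a, Clec9a, Ccr7 and Fscn1, and the open triangle puts Xcr1, with 0 reads in the knockout library, at its floor of 1.07 CPM.

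The type 1 genes had ratios of different size. Clec9a (ENSMUSG00000046080, chromosome 6, 129408862 to 129424763) encodes a receptor for actin exposed on dead cells, which routes their antigens to cross-presentation. Its reads numbered 221 in the knockout library and 853 in the control library, or 3.30 and 13.0 CPM. With 3.93-fold (1.69 to 9.85) it had the lowest ratio of the 9 members with reads in both libraries. Clec9a shares 184 exonic bases with Clec1b on the same strand, and Clec1b differed the other way, with 1116 reads in the knockout library and 377 in the control library. How reads of the shared bases were assigned was not tested.

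Xcr1 (ENSMUSG00000060509, chromosome 9, 123852315 to 123862029), the chemokine receptor that defines the subset, had 0 reads in the knockout library and 111 in the control library. Since 111 reads stand for about 2.36 fragments, less than the floor of 3, no fold is given, and the upper end of its interval, a ratio of 1.89, includes 1. Batf3 (ENSMUSG00000026630, chromosome 1, 191097847 to 191108945), the transcription factor of the subset, had 588 reads in the knockout library and 1009 in the control library, or 8.78 and 15.4 CPM. Its ratio was 0.571 with an interval of 0.307 to 1.07, so on fragments a difference was not detectable either. Wdfy4 (ENSMUSG00000051506, chromosome 14, 32959547 to 33185508) encodes a large vesicle-associated protein required in mice for cross-presentation by type 1 cells, and other myeloid cells and B cells express it too. It had 8324 reads in the knockout library and 10185 in the control library, or 124 and 155 CPM, and was 1.25-fold lower (1.05 to 1.48). The interval of Wdfy4 does not overlap that of Clec9a, so these 2 genes of the same subset differed by unequal amounts.

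The migratory genes were lower by nearly equal amounts. Ccr7 (ENSMUSG00000037944, chromosome 11, 99144196 to 99155077), the receptor that guides mature dendritic cells and also naive T cells to lymph nodes, had 3840 reads in the knockout library and 10078 in the control library. In CPM this was 57.3 and 153, 2.68-fold lower (2.17 to 3.31). Fscn1 (ENSMUSG00000029581, chromosome 5, 142960343 to 142973185) encodes fascin, the actin bundler of dendrites, which tumour cells can express as well. It had 2618 reads in the knockout library and 6927 in the control library, or 39.1 and 106 CPM, and was 2.70-fold lower (2.09 to 3.49). For these 2 members the interval lay wholly past 2-fold lower, as it did for 1.03% of the 14420 genes with enough reads to be measured. Once a trend of the ratios on GC content and transcript length was taken out, the interval began at 1.99-fold for Ccr7 and 1.94-fold for Fscn1 and thus reached inside 2-fold, while that of Dpp4 began at 2.05-fold. Both migratory genes were far better read than the type 1 genes other than Wdfy4.

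**Figure D2:**
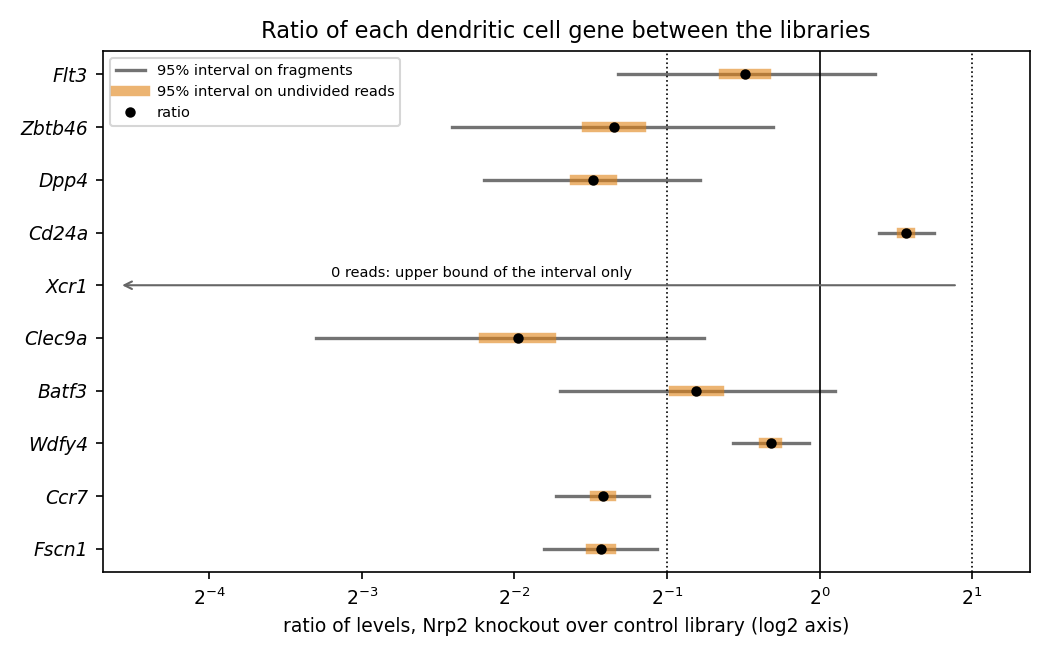
Ratio of the level in the Nrp2 knockout library over that in the control library for each of the 10 genes (log2 axis); black points are ratios, grey lines are 95% intervals on fragments and orange bands are 95% intervals on undivided reads, with dotted lines at 2-fold. The grey intervals of Ccr7 and Fscn1 end below the 2-fold line, those of Flt3, Batf3 and Xcr1 include 1, and that of Cd24a starts at 1.31.

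Counted over all 10 genes, 6 were lower by 2-fold or more in the knockout library and 0 were higher by that much, or 5 lower without Xcr1, whose ratio rests on the prior count. Of the 14420 genes measured, those with 50 reads or more in the pair of libraries, 14.7% were lower by 2-fold or more and 10.8% were higher by that much. Of the 9 members with 1000 reads or more, 5 were lower by 2-fold or more, where 4.02% of all genes so well read were. The interval lay wholly below 1 for 6 members (Zbtb46, Dpp4, Clec9a, Wdfy4, Ccr7 and Fscn1) and for 11.1% of all genes, and wholly above 1 for 1 member (Cd24a) and for 12.6% of all genes. It lay wholly past 2-fold higher for 0 members and for 0.853% of all genes. The median log2 ratio of the 10 members was -1.38, against -0.01 over all genes measured, and it was -1.35 over the 9 members without Xcr1. Since these genes are neither independent of each other nor replicates, the shares are descriptions.

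**Figure D3:**
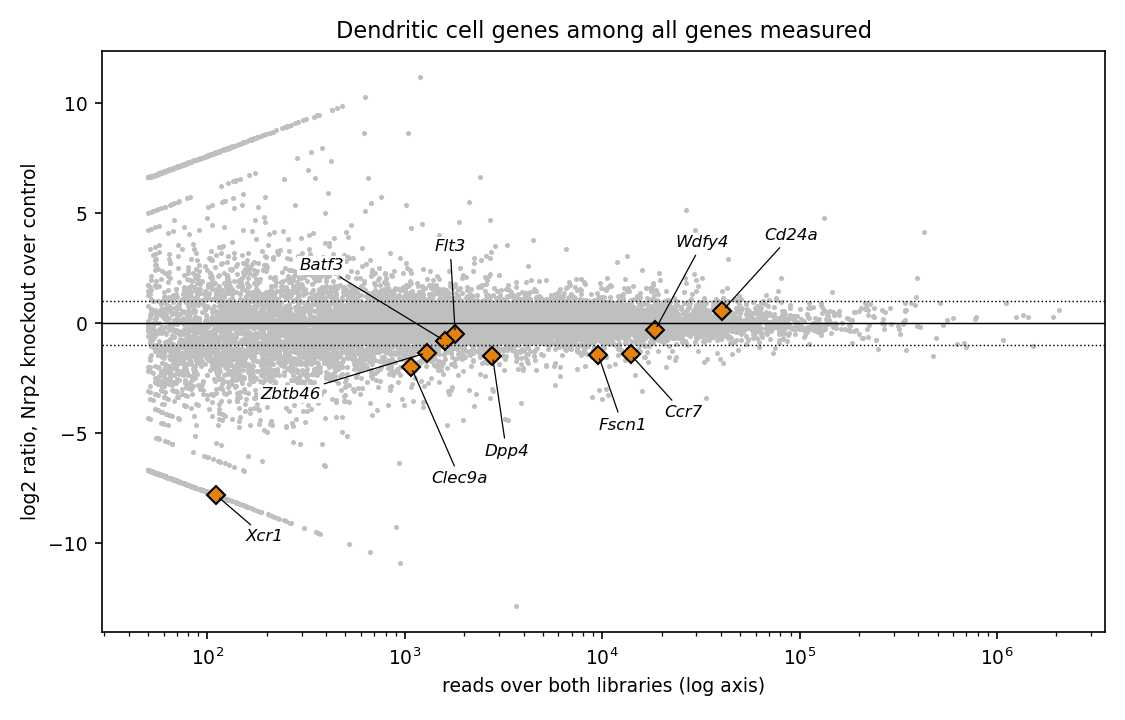
Log2 ratio of the Nrp2 knockout over the control library against the reads over both libraries (log axis) for the 14420 genes measured (grey), with the 10 dendritic cell genes as orange diamonds and dotted lines at 2-fold. Ratios spread widely among genes with few reads, where Xcr1 lies on the line of genes at 0 in the knockout library, whereas Ccr7 and Fscn1 lie below most genes of like read number.

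Of the 45 pairs of members, 12 had ratios whose intervals do not overlap. Cd24a stood apart from 8 of the other 9 genes, all but Xcr1, and Wdfy4 stood apart from Cd24a, Clec9a, Dpp4, Ccr7 and Fscn1. All other pairs, among them Ccr7 with Fscn1 and Clec9a with Zbtb46, had overlapping intervals. These counts depend on the setting. With the reads per fragment taken as a mean, Cd24a overlaps Flt3, and Wdfy4 overlaps Clec9a. Cd24a also overlaps Flt3 once the trend on GC content and transcript length is taken out. A further view sets the members against Itgax, which encodes CD11c, an integrin of dendritic cells that tumour macrophages also carry. Itgax was at 306 CPM in the knockout library and 641 CPM in the control library, 2.09-fold lower (1.90 to 2.30). Relative to Itgax, Ccr7 was 1.28-fold, Fscn1 1.29-fold, Dpp4 1.33-fold, Zbtb46 1.21-fold and Clec9a 1.88-fold lower in the knockout library. Batf3 was 1.20-fold, Flt3 1.49-fold, Wdfy4 1.68-fold and Cd24a 3.10-fold higher on that scale. The direction of 3 of these depends on the gene set beside them: relative to Itgam, the CD11b gene, Batf3 was 2.51-fold, Flt3 2.01-fold and Wdfy4 1.79-fold lower in the knockout library, while Cd24a was at a ratio of 1.03. These ratios of ratios have no interval.

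Levels were compared between genes as CPM per kilobase of exon sequence. In the knockout library Cd24a led with 141, followed by Ccr7 with 29.0, Fscn1 with 13.0, Wdfy4 with 11.8 and Batf3 with 5.497. Flt3 with 1.83, Dpp4 with 1.76, Clec9a with 1.002 and Zbtb46 with 0.647 came next, and Xcr1 was at 0. From Flt3 to Zbtb46, and between Fscn1 and Wdfy4, neighbours in this order had overlapping Poisson intervals on fragments. In the control library Cd24a was at 95.5, Ccr7 at 77.6, Fscn1 at 35.0, Wdfy4 at 14.7 and Batf3 at 9.62 CPM per kilobase. Dpp4 at 4.91, Clec9a at 3.95, Flt3 at 2.57, Zbtb46 at 1.65 and Xcr1 at 0.380 followed. There the intervals of neighbours were apart only between Ccr7 and Fscn1 and between Fscn1 and Wdfy4. Cd24a and Ccr7, which overlapped in the control library, were apart in the knockout library.

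In the authors' deposited table, which compares the same libraries, the log2 fold changes of the 9 members with reads in both ranged from -1.96 for Clec9a to 0.58 for Cd24a, with standard errors of 0.441 to 1.09. The authors' deposited table gave adjusted p-values from 0.998937 for Xcr1 to 0.999872 for the other 9 members, and its smallest adjusted p-value over all genes was 0.331. Unadjusted, the authors' deposited table lists p-values of 0.0175 for Xcr1, 0.0210 for Ccr7 and 0.0252 for Fscn1, among 4.21% of its genes with an unadjusted p-value under 0.05.

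Beyond the members, 4 lists of dendritic cell genes were described, with 76 different genes in all, 75 of them measured. Together 32 were lower by 2-fold or more in the knockout library and 0 were higher by that much, and 26 of 65 were lower when the members are left out. Over all genes measured, 14.7% were lower and 10.8% higher by that much, and these shares stand beside the counts of every list below. The interval lay wholly below 1 for 42 of the 75 and wholly above 1 for 7, against 11.1% and 12.6% of all genes. The summed levels, to which the best-read genes contribute most, differed by less than the medians: 1.09-fold lower (1.05 to 1.13) for shared and developmental genes, 1.21-fold (1.14 to 1.27) for type 1, 1.20-fold (1.16 to 1.24) for type 2 and 1.38-fold (1.33 to 1.43) for migratory and mature genes. In the list of shared and developmental genes 6 of 17 were lower by 2-fold or more (median log2 ratio -0.51). Zfp366, which encodes the nuclear cofactor DC-SCRIPT, had 74 reads in the knockout library and 291 in the control library, with an interval of the ratio of 0.0417 to 1.14. The myc family gene Mycl had 110 and 241 reads, with an interval that also includes 1. Broadly expressed factors of the same list differed by less. Id2 was at 561 CPM in the knockout library and 445 CPM in the control library, and Irf8, needed for type 1 cells and expressed in monocytes too, at 252 and 324 CPM.

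In the type 1 list 7 of 18 measured genes were lower by 2-fold or more (median -0.58). Tlr11, a sensor of microbial profilin, was 4.46-fold lower (1.53 to 15.0), with 134 reads in the knockout library and 587 in the control library. Cd8a, also a T cell gene, was 3.11-fold lower (1.495 to 6.73), and Plet1, a surface protein gene, 2.55-fold lower (1.93 to 3.38). The 3 genes of the list with the most reads differed by less, with ratios of 0.938 for Naaa, 0.777 for Irf8 and 0.880 for Ppt1.

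Type 2 genes were the list with the lowest median among the 4, with 8 of 16 lower by 2-fold or more (median -1.27). The interval lay wholly below 1 for 8 of its genes and wholly above 1 for 2. These 2 were Klf4, at a ratio of 1.78 (1.63 to 1.94), and Itgam, at 1.43 (1.28 to 1.61). Cd209a, a lectin gene of type 2 and monocyte-derived cells, was at 2.25 CPM in the knockout library and 46.6 CPM in the control library, 20.6-fold lower (9.16 to 56.8). The lectin gene Mgl2, which is not confined to type 2 cells, was 10.5-fold lower (8.62 to 12.8). The cytokine gene Ltb, also a lymphocyte gene, was 7.40-fold lower (3.44 to 17.8). Esam, which is an endothelial gene too, was 8.94-fold lower (1.35 to 180.0). Both lectin genes belong to families with similar copies, among which reads could be split. Clec10a, another lectin gene of this list, had a ratio of 0.832 (0.745 to 0.929). Sirpa, the surface receptor by which type 2 cells are often gated and which macrophages share, had a ratio of 0.991 (0.928 to 1.06), and Irf4, their transcription factor, one of 0.725 (0.454 to 1.17).

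In the migratory and mature list 11 of 25 genes were lower by 2-fold or more (median -0.91) and the interval lay wholly past 2-fold for 8. Apol7c, an apolipoprotein L family gene of type 1 and mature cells, had 91 reads in the knockout library and 1879 in the control library, 20.96-fold lower (7.45 to 84.9). Nudt17, Il4i1, an amino acid oxidase, and Il12b, a chain shared by IL-12 and IL-23, were lower too, with folds of 8.32 (2.65 to 35.6) for Nudt17, 5.31 (2.99 to 9.87) for Il4i1 and 5.22 (1.67 to 20.1) for Il12b. Genes of co-stimulation, which macrophages also express, differed less: the ratio was 0.687 for Cd40, 0.778 for Cd80 and 0.691 for Cd86. The interval lay wholly below 1 for 19 genes of the list and wholly above 1 for 2. These 2 were Socs2, a cytokine signalling inhibitor, at a ratio of 1.66 (1.23 to 2.29), and Cd274, at 1.20 (1.10 to 1.32).

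The ligands of the receptors among the members were scarcely read. Flt3l, which encodes the ligand of Flt3, had 320 reads in the knockout library and 604 in the control library, with a ratio of 0.520 (0.223 to 1.21). Xcl1, the ligand of Xcr1, made by NK and T cells, had 81 and 240 reads, with a ratio of 0.332 (0.0576 to 1.61). Few or no reads were counted for Ccr7's ligands, as Ccl19 had 0 reads in both libraries and Ccl21a had 16 in the knockout library and 0 in the control library. Similar copies of the ligand genes were not searched for, so these counts do not show that the ligands were absent.

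**Figure D4:**
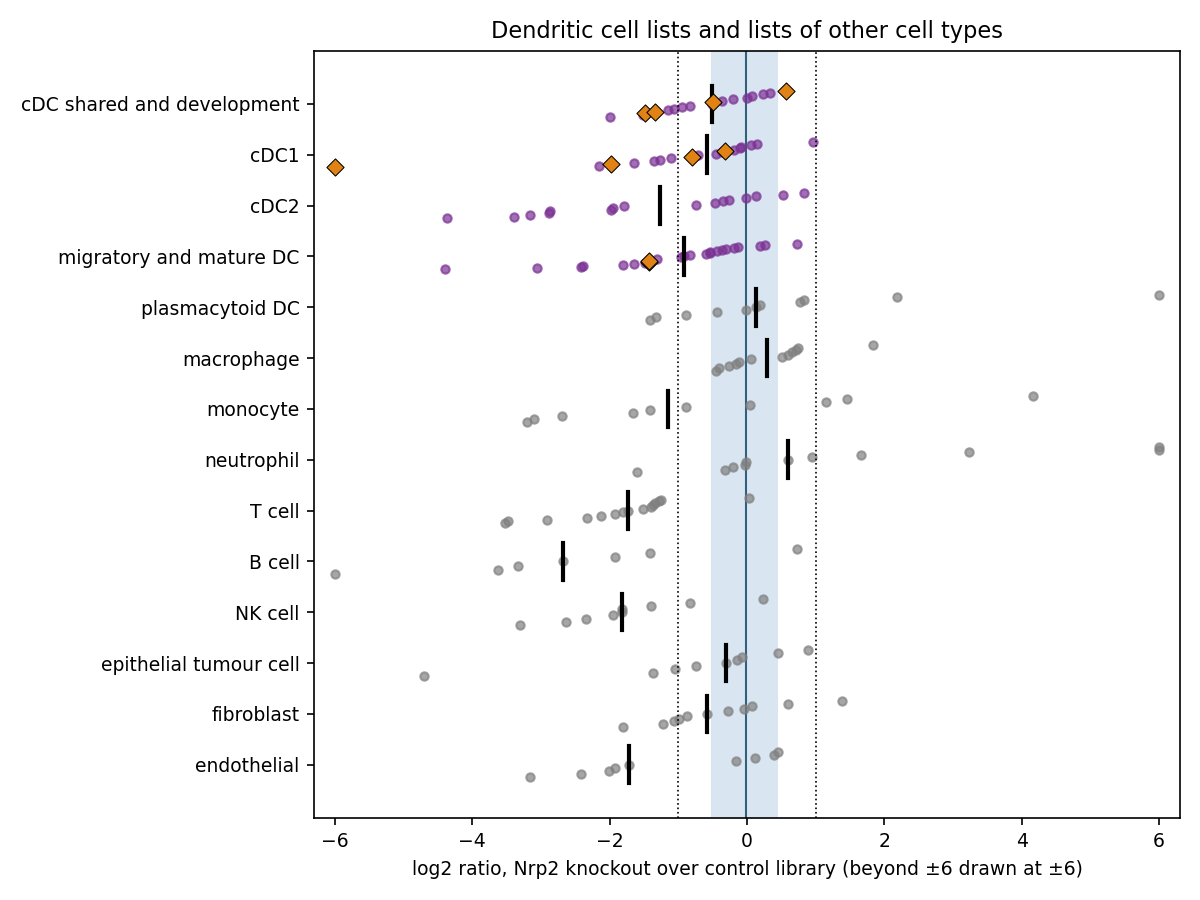
Log2 ratio of the Nrp2 knockout over the control library for the measured genes of 4 dendritic cell lists (purple) and 10 lists of other cell types (grey), with members as orange diamonds and list medians as black bars, and values past 6 drawn at 6; the blue band spans the quartiles of all genes, -0.51 and 0.44. The medians of the 4 conventional dendritic cell lists lie between -0.51 and -1.27, those of T, B and NK cell genes lower still, and those of macrophage and neutrophil genes above 0.

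Genes of several other cell types moved beside the members, and their part in the members' ratios was not tested. T cells share Ccr7 and Dpp4 with dendritic cells: of 15 T cell genes 14 were lower by 2-fold or more, and their summed level was 77.0 CPM in the knockout library and 239 CPM in the control library. Single T cell genes ranged from 0.358 to 35.0 CPM in the knockout library and from 3.05 to 100.2 CPM in the control library, with none at 0. Cd8b1 was 11.5-fold (2.23 to 148), Skap1 11.2-fold (1.35 to 528), Tcf7 7.502-fold (1.74 to 53.99) and Cd5 5.003-fold (1.18 to 29.7) lower. They had 40, 24, 59 and 72 reads in the knockout library, none above its floor of 72 reads. The sizes of these folds are therefore poorly known. B cell genes, with Ighm and Igkc at 10.1-fold and 12.3-fold and Cd79b at 6.43-fold lower, summed to 21.4 and 202 CPM in the knockout and control libraries. The B cell markers Pax5, Blk and Fcer2a had 0 reads in the knockout library and 56, 24 and 23 in the control library, all under the floor of 3 fragments, so no difference is read from them, and Cr2 had 0 in both. For 9 NK cell genes, led by Prf1, Nkg7, Gzma and Klrk1 at 5.09-fold to 2.65-fold lower, the sums were 34.4 and 107 CPM.

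Epithelial, stromal and endothelial genes bear on Cd24a and Fscn1. The epithelial list summed to 156 CPM in the knockout library and 214 CPM in the control library, with Muc1 (9 and 242 reads), Krt19 (2.58-fold) and Cdh1 (2.06-fold) lower, Lamb3 at a ratio of 1.85, and Cldn4 at 0 in both. The fibroblast sums were 296 and 462 CPM, with 3 of 11 genes lower by 2-fold or more and 1, Fap, higher on 94 and 35 reads. Thy1, which the T cell list holds too, was at 3.48-fold, Col1a2 at 1.99-fold and Col1a1 at 1.83-fold lower. Pdgfrb was 2.34-fold lower, but the interval of its ratio, 0.110 to 1.58, includes 1, as does that of Fap, 0.213 to 380. The endothelial sums were 37.0 and 97.8 CPM, with 5 of 9 genes lower by 2-fold or more and 0 higher by that much. Pecam1, which held 1101 of the 2479 reads of this list in the knockout library and 4086 of 6418 in the control library, was 3.79-fold lower, Plvap 5.34-fold and Kdr 4.01-fold lower, while Vwf had a ratio of 1.31 with an interval that includes 1. The 3 list sums were lower in the library where Cd24a was higher, and their part in its ratio was not tested. Zbtb46 was lower in the same library as these sums, and their part in its ratio was not tested either. Neutrophils, which carry Cd24a, gave a list sum of 1702 CPM in the knockout library and 1700 CPM in the control library. The genes behind this sum did not move alike: the list had a median log2 ratio of 0.60, with the interval wholly above 1 for 5 genes and wholly below 1 for 3. Of its 11 measured genes 4 were higher by 2-fold or more, among them Ngp with 1033 and 2 reads, Lcn2 at a ratio of 9.43 and Ltf at 3.16, while Mmp9 was 3.05-fold lower. The 4 include Ly6g, with 96 reads in the knockout library and 0 in the control library, whose ratio rests on the prior count since its level was under the control floor, and Camp had 18 and 0 reads.

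Macrophage genes made up far more of both libraries than the dendritic cell genes did. Their list summed to 34566 CPM in the knockout library and 27424 CPM in the control library. Apoe alone, at a ratio of 1.51, held 18685 and 12399 CPM of these sums. Mertk was at a ratio of 3.57, Cd68 at 1.68 and Mrc1 at 1.64. Of its 12 genes 6 had an interval wholly above 1 and 5 one wholly below 1, among them Adgre1 at 0.729 (0.672 to 0.791) and Fcgr1 at 0.756 (0.671 to 0.851). Among monocyte genes, which dendritic cells derived from monocytes share in part, 5 of 10 were lower by 2-fold or more and 3 were higher by that much. Cx3cr1, Treml4 and Plac8 were 8.58-fold, 9.20-fold and 3.16-fold lower, and the list summed to 7147 CPM in the knockout library and 1999 CPM in the control library. The 3 higher genes were Chil3, Ly6c2 and Vcan. Chil3, at a ratio of 17.9, held 6067 and 338 CPM of these sums. Ly6c2 had a ratio of 2.75 (2.14 to 3.56) and Vcan one of 2.21 (1.41 to 3.60). Plasmacytoid dendritic cell genes, from the other dendritic lineage, had a median log2 ratio of 0.14 over 11 genes. Of these Lag3 was 2.67-fold lower (1.76 to 4.08), Bst2 and Irf7 had ratios of 0.741 and 1.77, and Spib, at a ratio of 0.540, had an interval that includes 1. CD11b itself (Itgam) was at 422 CPM in the knockout library and 294 CPM in the control library, Csf1r at 1842 and 2205 CPM, and the leukocyte gene Ptprc at 512 and 695 CPM.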

How the data were processed

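Messenger RNA of CD11b+ tumour cells was sequenced in 2 libraries, 1 per group, made, per the labels' protocols, with a TruSeq stranded kit for mRNA. Tools named in the submitters' processing notes are cutadapt, HISAT2 and featureCounts, without versions, and the build is GRCm38. For the annotation and the strand setting, nothing was given in the sources used here. The authors deposited raw counts of reads per Ensembl gene, and per the file headers they come from read 1. Their deposited comparison table holds a normalised signal (counts divided by 1.01 in the knockout and 0.995 in the control library), a log2 fold change, its standard error and test statistic (each a score), and p-values. Which tool made it is not stated in the labels or headers.

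Counts were scaled with TMM factors (edgeR 4.0.16, R 4.3.3), 0.977 for the knockout and 1.02 for the control library. Log2 ratios used a prior of 0.5 reads, for the 14420 genes whose reads summed to 50 or more. With 1 library per group no count test could be fitted, so genes were described by a 2-fold rule and by Clopper-Pearson intervals (scipy 1.17.1) on fragments. The ratio and interval code was tested on simulated data, which were drawn with the same reads per fragment and so do not test that estimate. No molecular identifiers are named, so the reads per fragment, on which intervals and floors rest, were estimated from the counts. Intervals and floors cover counting error only. Symbols, matched for 49326 of 49585 genes, coordinates and exon lengths came from GENCODE M21, and similar copies from BLAST 2.17.0 (at least 95% identity over 200 bases). The members and the 15 gene lists were chosen with earlier results of these data known. In each list the text names up to 4 genes whose log2 ratio was farthest from 0, given 200 reads in the higher library, and the listed genes named beside them were picked after their values were seen. Of the genes this rule names, 1 is not reported here.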

Additional observations from a re-analysis of the deposited data

How the results depend on the processing

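No paired analysis was possible because each group has 1 library, and for the same reason none could be left out. With total reads, upper-quartile factors or median-of-ratios size factors, or with a prior of 5 reads, 6 members were at least 2-fold lower, as in the report, and 0 higher; the median log2 ratio of the members was between -1.45 and -1.37. Holding a library at 0 at its floor left 5 lower and a median of -1.08. Without a read minimum, 3272 genes in all were at least 2-fold lower and 4131 higher (2124 and 1558 with the minimum of 50), and with at least 1000 reads 364 and 407, since fewer genes are then counted. On undivided reads the interval lay wholly below 1 for 9 members, against 6 on fragments. On those reads it lay wholly past 2-fold lower for 6 members, against 2 on fragments. It did so for 1 member, Ccr7, with the reads per fragment taken as a mean (35.8 in the knockout and 59.0 in the control library), and for 1, Dpp4, after removal of the trend of ratios on GC and length of the transcripts, an alternative chosen after seeing the data. The summed list levels of 5 lists, at log2 ratios of -0.12, -0.27, -0.47, 0.33 and 1.84 in the order below, moved past their narrow counting intervals under total reads and under upper-quartile factors, to log2 ratios of -0.19 and -0.18 for shared and developmental dendritic cell genes, -0.33 and -0.32 for type 2, -0.53 and -0.52 for migratory and mature, 0.27 and 0.28 for macrophage, and 1.77 and 1.78 for monocyte genes; these settings differ in the scaling alone. The ratios of the 10 members kept their direction under each scaling and prior and without the trend; with a library at 0 held at its floor, Xcr1 had a log2 ratio of 0. Values close to 0 changed sign: the neutrophil sum had log2 ratios of -0.07 with total reads and -0.06 with upper-quartile factors, against 0.00118 with the main scaling, and the median of all genes, -0.01 in the report, was 0.06 without a read minimum, 0.04 with 1000 reads and 0.00331 with median-of-ratios factors. On fragments the intervals of Xcr1, Flt3, Batf3, Flt3l and Xcl1 include 1. On undivided reads, which take no account of copied reads, they end below 1, at ratios of 0.0331, 0.783, 0.633, 0.596 and 0.427.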
